A study of Neurospora crassa with 11 samples.

Results

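A set of 4 sugar transporter genes of the major facilitator superfamily was followed through the RNA-seq libraries of the filamentous fungus Neurospora crassa. They were the cellodextrin transporter genes cdt-1 (NCU00801) and cdt-2 (NCU08114), and the related genes NCU05853 and NCU00809. The 4 genes were chosen by name, with earlier results of these data known, out of 9758 genes in the deposited count tables. All 4 passed the filter on low counts. RNA of whole mycelium was measured in 11 libraries after growth on sucrose in Vogel's minimal medium for 16 h, a wash, and transfer to new medium. The A828V strain expressed the xlr-1-A828V allele from the ccg-1 promoter, inserted at his-3, its own xlr-1 having been replaced by a hygromycin resistance marker. It was moved to medium without carbon (3 libraries) and to sucrose (1 library). The xlr-1 deletion strain, with the same marker in place of xlr-1 (4 libraries), and wild type, the OR74A strain FGSC2489 (3 libraries), were moved to xylan. All strains are given as the OR74A background, so the A828V strain differs from wild type in promoter and position of xlr-1 as well as in the allele. For wild type moved to medium without carbon the authors' deposited group means were used.

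Cellodextrins are short chains of glucose cut from cellulose outside the cell. In Neurospora crassa, CDT-1 and CDT-2 carry them across the plasma membrane, after which an intracellular beta-glucosidase, GH1-1, splits them to glucose. CDT-2 is also known to import xylodextrins, the short xylose chains cut from xylan, which intracellular xylosidases then split. XLR-1 is the zinc-cluster activator of xylan and xylose genes, and the study asked for its part, with CLR-1 and CLR-2, in plant cell wall degradation. NCU05853 has been described in this fungus as a carrier of cellobionic acid, the oxidised form of cellobiose. The authors' tables name cdt-1 an MFS lactose permease, cdt-2 a hexose transporter and NCU05853 an MFS sugar transporter. NCU00809 has no product name there, because those tables merge it with its neighbour NCU00808.

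Counts in genes ranged from 10317390 to 18927605 per library. The mean level of xlr-1 in CPM (read counts scaled to library size with TMM factors) was 118 ± 10.2 for A828V without carbon (SD, n = 3), 199 in the A828V library on sucrose, 7.62 ± 3.86 for the deletion (SD, n = 4) and 135 ± 22.8 for wild type (SD, n = 3). The A828V libraries are labelled mat a. Their reads of the 3 genes of mating type A summed to 6.60 to 7.43 CPM without carbon and 1.06 CPM on sucrose, against 5.58 to 12.7 CPM in wild type, and to 0 in all 4 deletion libraries. The A828V libraries thus go against that label, and the deletion strain differs from the others in mating type reads as well as in xlr-1. For matA-1, of these 3 genes, the authors' deposited means without carbon were 5.76 FPKM in A828V and 29.5 FPKM in wild type (adjusted p = 2.64e-06 in their table). The summed level of 5 conidiation genes, markers of asexual spore formation, was 19806 to 23367 CPM in the A828V libraries without carbon. It was 609 CPM in the A828V library on sucrose, 413 to 2047 CPM in the deletion strain and 228 to 2426 CPM in wild type on xylan. Each comparison below of A828V without carbon with libraries on sucrose or xylan therefore sets apart libraries that also differ in the conidiation genes. Against wild type without carbon, the authors' deposited table called none of the 5 higher in A828V. Means were nonetheless higher in A828V for con-6 (2202 against 889 FPKM), con-8 (1481 against 748 FPKM), eas (13628 against 7431 FPKM) and fl (45.4 against 25.7 FPKM). Their adjusted p-values in that table were 0.182 to 0.799. The 1 called lower was con-10, at 110 FPKM in A828V and 409 FPKM in wild type (adjusted p = 0.000107 in their table). Within wild type, the authors' table called 4 of the 5 lower on xylan than without carbon. fl was also lower in mean, at 9.79 against 22.4 FPKM, but was not called (adjusted p = 0.259 in their table). The part of spore formation in the results was not tested. In RNA of whole mycelium, fewer cells of a type and less RNA per cell cannot be told apart.

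On the chromosomes, with coordinates of the authors' files on contigs named as in assembly NC12, cdt-2 lies on chromosome I at 318873 to 321079. NCU00809 (7088949 to 7091552) and cdt-1 (7121829 to 7125021) lie on the same chromosome, 30276 bases apart with 7 annotated genes between them. NCU05853 lies on chromosome VII at 4056218 to 4058155. The hypothetical gene NCU10770 lies within the cdt-1 locus and had 0 counts in every library, and NCU00808 starts 21 bases after NCU00809. Strand was not stated for the counting, so reads of such close or overlapping genes may have been shared or lost.

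cdt-2 differed strongly between the groups. Per length, it stood at 4018, 4034 and 4590 FPKM (fragments scaled to transcript length and library size) in the 3 A828V libraries without carbon and at 69.3 FPKM in the A828V library on sucrose. It stood at 17.5, 78.3, 58.0 and 18.9 FPKM in deletion libraries 1 to 4 and at 1829, 2953 and 1817 FPKM in wild-type libraries 1 to 3 on xylan. The 3 A828V libraries without carbon lay above all wild-type libraries, which lay above all deletion libraries. The sucrose value fell inside the range of the deletion strain on FPKM, whereas on CPM it was 144, above the deletion libraries at 26.0 to 107 CPM. Among all genes of a library ranked by FPKM, cdt-2 held places 9 to 10 in A828V without carbon, place 1114 on sucrose, places 1301 to 4119 in the deletion strain and places 18 to 38 in wild type.

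**Figure D1:**
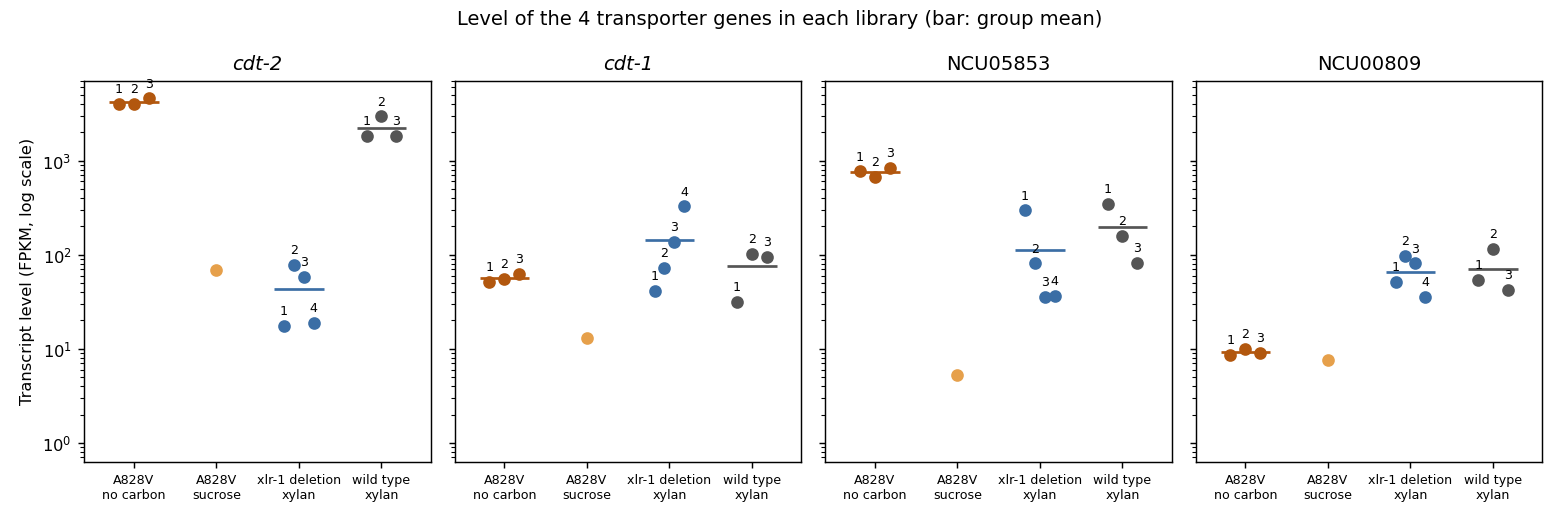
Level of each of the 4 genes in every library (points, FPKM on a log scale, numbered by replicate) with the group mean as a bar. cdt-2 lies between 17.5 and 78.3 FPKM in the xlr-1 deletion and between 1817 and 2953 FPKM in wild type on xylan, while the other 3 genes overlap between these strains.

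On xylan, cdt-2 had a mean of 65.7 ± 40.4 CPM over the 4 deletion libraries (SD), against 3733 ± 862 CPM over the 3 wild-type libraries (SD). That was a 56.8-fold lower level, a log2 fold change of -5.83 (SE 0.53; adjusted p = 0.000289 by edgeR's quasi-likelihood test, adjusted by Benjamini and Hochberg's method over 8557 genes). cdt-2 was the 1 of the 4 genes that passed in this comparison, in which 0.573% of all tested genes were called lower and 0.0234% higher. By absolute log2 fold change it ranked 21 of the tested genes. The count of genes called lower, 49 against 2 called higher, was 220 against 167 with DESeq2, and cdt-2 kept its call in every fit run, with log2 fold changes of -6.17 to -5.56. Under a block on replicate number 38 genes were called lower and 6 higher, and no member changed its call.

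The other 3 genes did not pass between the deletion strain and wild type. cdt-1 stood at 41.6, 73.1, 136 and 326 FPKM in deletion libraries 1 to 4, against 31.6, 102 and 93.8 FPKM in wild-type libraries 1 to 3. The groups overlap, and deletion library 4 was above all other libraries of the series. The log2 fold change was 1.04 (SE 0.71, 95% interval -0.63 to 2.72, adjusted p = 0.557, edgeR). That value rested on deletion library 4: it was -0.01 without that library, and -0.06 under the replicate block, in which library 4 has no wild-type partner.

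NCU05853 stood at 296, 80.6, 35.3 and 36.7 FPKM in deletion libraries 1 to 4, against 347, 160 and 82.3 FPKM in wild-type libraries 1 to 3. The library numbered 1 was the highest in each strain, the same library in which cdt-1 was lowest, and the groups overlap. Within each of the 3 pairs of the same number the deletion library was the lower one. The log2 fold change was -1.02 (SE 0.68, 95% interval -2.63 to 0.59, adjusted p = 0.548, edgeR). It was -2.05 without deletion library 1 (adjusted p = 0.101, edgeR) and -0.29 without wild-type library 1 (adjusted p = 0.953, edgeR), and -1.33 when both were left out (adjusted p = 0.206, edgeR), a setting chosen after seeing the data. Under the replicate block it was -0.99 (SE 0.50, adjusted p = 0.371, edgeR), and with that block on the deletion and wild-type libraries alone, also chosen after seeing the data, -1.01 (SE 0.27, adjusted p = 0.134, edgeR). NCU00809 stood at 51.8, 96.5, 80.8 and 35.5 FPKM in the deletion libraries, against 53.9, 116 and 42.0 FPKM in wild type. These values overlap, with a log2 fold change of -0.22 (SE 0.37, 95% interval -1.10 to 0.66, adjusted p = 0.833, edgeR).

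Because cdt-1 and cdt-2 share a substrate class, their relative level was taken within each library. The ratio of cdt-2 to cdt-1 in FPKM was 0.421, 1.07, 0.425 and 0.0579 in deletion libraries 1 to 4, against 57.9, 29.0 and 19.4 in wild-type libraries 1 to 3. In A828V without carbon it was 78.5, 72.6 and 72.8, and it was 5.34 on sucrose. cdt-2 transcripts thus exceeded cdt-1 transcripts per length in every library except deletion libraries 1, 3 and 4. The log2 ratio averaged -1.62 ± 1.77 (SD, n = 4) in the deletion strain and 4.995 ± 0.80 (SD, n = 3) in wild type, a difference of -6.62 (exact permutation test, 2-sided, p = 0.0571, the smallest this design allows). For A828V without carbon the log2 ratio averaged 6.22 ± 0.06 (SD, n = 3), 1.23 above wild type on xylan (exact permutation test, 2-sided, p = 0.1, again the smallest possible). After Benjamini-Hochberg adjustment over these 2 comparisons, which share the wild-type libraries, both exact p-values were 0.1.

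In the A828V strain, medium without carbon went with more cdt-2 and more NCU05853 than sucrose did. cdt-2 averaged 5547 ± 314 CPM (SD, n = 3) without carbon and had 144 CPM in the sucrose library, 38.6-fold apart (log2 fold change 5.27, SE 0.98, adjusted p = 0.0067, edgeR). NCU05853 stood at 766, 677 and 841 FPKM without carbon, against 5.27 FPKM, from 91 counts, on sucrose. All 3 libraries without carbon lay far above the sucrose value, a 92.0-fold difference (log2 fold change 6.52, SE 1.56, adjusted p = 0.0190, edgeR). In this comparison 8.39% of tested genes were called higher and 10.4% lower.

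cdt-1 and NCU00809 did not pass between the media of the A828V strain. cdt-1 stood at 51.2, 55.5 and 63.0 FPKM without carbon, against 13.0 FPKM on sucrose, all 3 libraries above the sucrose value (log2 fold change 1.43, SE 1.14, 95% interval -1.28 to 4.14, adjusted p = 0.403, edgeR). In a fit of these 4 libraries alone, cdt-1 passed with a log2 fold change of 1.40. The spread in that fit comes from the 3 libraries without carbon, and it called far more of all genes than the main fit. Its call is thus weak evidence of a change in cdt-1. NCU00809 stood at 8.54, 9.94 and 9.03 FPKM without carbon, against 7.56 FPKM on sucrose, and its log2 fold change on counts was -0.18 (SE 0.57, 95% interval -1.52 to 1.16, adjusted p = 0.846, edgeR). Its sign flips between the 2 scales: on FPKM the libraries without carbon lay above sucrose, on CPM below. With a single sucrose library, the spread of that group is taken from the other groups, and the error of each value covers no second sucrose culture.

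**Figure D2:**
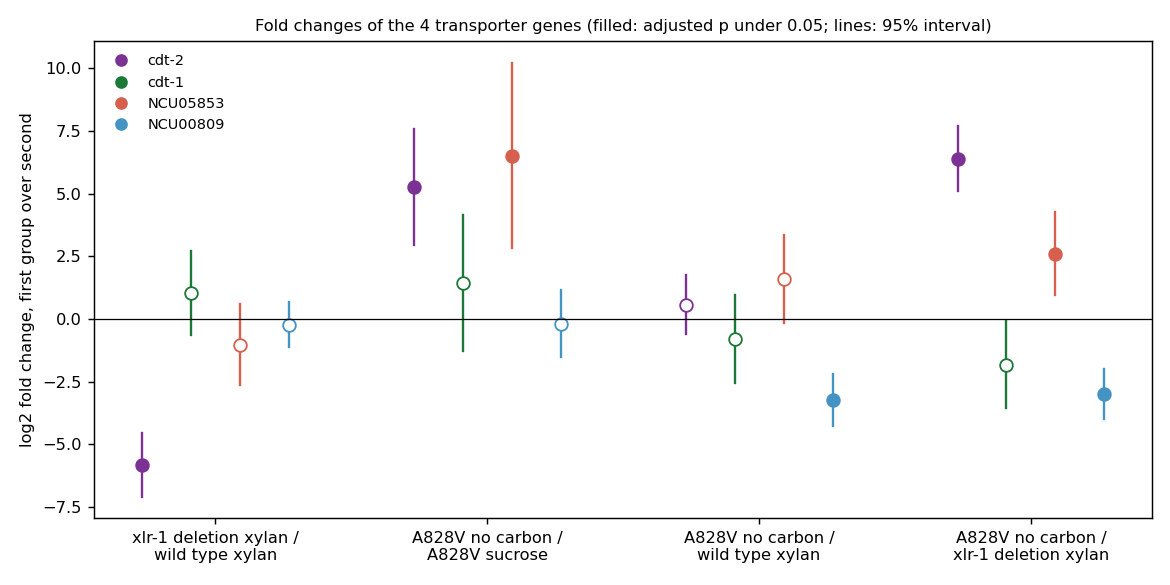
Log2 fold change of each gene in the 4 comparisons, first group over second, with 95% intervals, filled where the adjusted p of edgeR is under 0.05. cdt-2 passes in 3 comparisons, NCU05853 and NCU00809 in 2 each, and cdt-1 in none.

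A828V without carbon differed in NCU00809 from wild type on xylan. Its 8.54 to 9.94 FPKM in the A828V libraries lay below all wild-type values of 42.0 to 116 FPKM, with means of 17.97 ± 1.40 CPM in A828V and 167 ± 91.8 CPM in wild type (SD, n = 3 each). The gene was 9.31-fold lower (log2 fold change -3.22, SE 0.44, adjusted p = 0.00193, edgeR), in a comparison where 11.5% of tested genes were called lower and 9.29% higher. cdt-2 was above every wild-type library without passing (log2 fold change 0.57, SE 0.49, 95% interval -0.60 to 1.74, adjusted p = 0.429, edgeR). NCU05853 was likewise above every wild-type library (log2 fold change 1.59, SE 0.75, 95% interval -0.18 to 3.36, adjusted p = 0.151, edgeR), and passed in a fit of the 6 libraries compared (adjusted p = 0.0410, edgeR). That fit called 1489 genes higher and 1524 lower, against 795 and 983 in the main fit. cdt-1 overlapped between the groups (log2 fold change -0.78, SE 0.74, 95% interval -2.53 to 0.97, adjusted p = 0.476, edgeR). How many of all genes set these 2 groups fully apart was not counted, so separation alone has no scale here. Strain and medium change together here and cannot be told apart.

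Against the deletion strain on xylan, A828V without carbon had 84.5-fold more cdt-2 (log2 fold change 6.40, SE 0.55, adjusted p = 0.000159, edgeR). NCU00809 was 7.995-fold lower (log2 fold change -2.999, SE 0.42, adjusted p = 0.00253, edgeR). In this comparison 4.9% of tested genes were called higher and 3.8% lower. The groups did not overlap for cdt-2, NCU00809 or NCU05853, and the share of all genes without overlap was not counted. NCU05853 was 6.11-fold higher, with A828V libraries at 677 to 841 FPKM and deletion libraries at 35.3 to 296 FPKM (log2 fold change 2.61, SE 0.70, adjusted p = 0.0463, edgeR). That call was lost when any of the 3 A828V libraries or deletion library 2, 3 or 4 was left out, with log2 fold changes of 2.32 to 2.67 and adjusted p of 0.0677 to 0.144 (edgeR). It held without deletion library 1, at 3.65 (adjusted p = 0.00352, edgeR). cdt-1 overlapped between the groups (log2 fold change -1.82, SE 0.73, adjusted p = 0.137, edgeR), and passed with DESeq2 (-1.81, adjusted p = 0.0463). The 4 comparisons share groups, so their values stand side by side and are not independent.

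The split of calls over all genes depended on the scale, which bears on the shares just given. On log2 of FPKM + 1 with limma, 1429 genes were called higher and 429 lower for A828V without carbon against sucrose, where edgeR called 718 and 894. Against wild type on xylan the limma split was 1599 and 521, where edgeR had 795 and 983. Against the deletion strain it was 681 and 158, where edgeR had 419 and 325. The median log2 fold change of all genes was higher on the FPKM scale than in edgeR by 0.32, 0.30 and 0.23 in these 3 comparisons. Members that passed with edgeR kept their direction and their call on that scale.

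The wild type without carbon gives the strains a common point, through the authors' deposited tables. In the authors' deposited table, cdt-2 averaged 2080 FPKM in wild type on xylan, against 65.2 FPKM in wild type without carbon, 31.9-fold higher with an adjusted p of 1.12e-10. In all, 39 genes had a smaller adjusted p in that table. The merged entry of NCU00808 and NCU00809 averaged 87.0 FPKM on xylan, against 20.5 FPKM without carbon (log2 fold change 2.08, adjusted p = 0.0241 in the authors' deposited table). cdt-1 averaged 71.8 and 36.2 FPKM in the same 2 groups of the authors' deposited table (log2 fold change 0.99, adjusted p = 0.502) and NCU05853 193 and 216 FPKM (-0.17, adjusted p = 0.9999). Of the genes tested there, 5.91% were called higher on xylan and 1.93% lower.

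With the medium the same and the strain different, the authors' deposited table gave cdt-2 a mean of 3503 FPKM in A828V without carbon, against 75.0 FPKM in wild type without carbon, 46.7-fold higher with an adjusted p listed as 0. NCU05853 averaged 614 FPKM in A828V and 249 FPKM in wild type, 2.47-fold higher (adjusted p = 0.0417 in the authors' deposited table). cdt-1 stood at 48.1 and 41.6 FPKM there (log2 fold change 0.21, adjusted p = 0.9996 in the authors' deposited table). The merged NCU00808 and NCU00809 entry stood at 13.6 and 23.6 FPKM (-0.79, adjusted p = 0.460 in the authors' deposited table). Among its tested genes, 2.94% were called higher in A828V and 1.57% lower. The 2 tables were scaled separately, since the same wild-type group without carbon has cdt-2 at 65.2 FPKM in one and 75.0 FPKM in the other, so means are compared within a table.

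**Figure D3:**
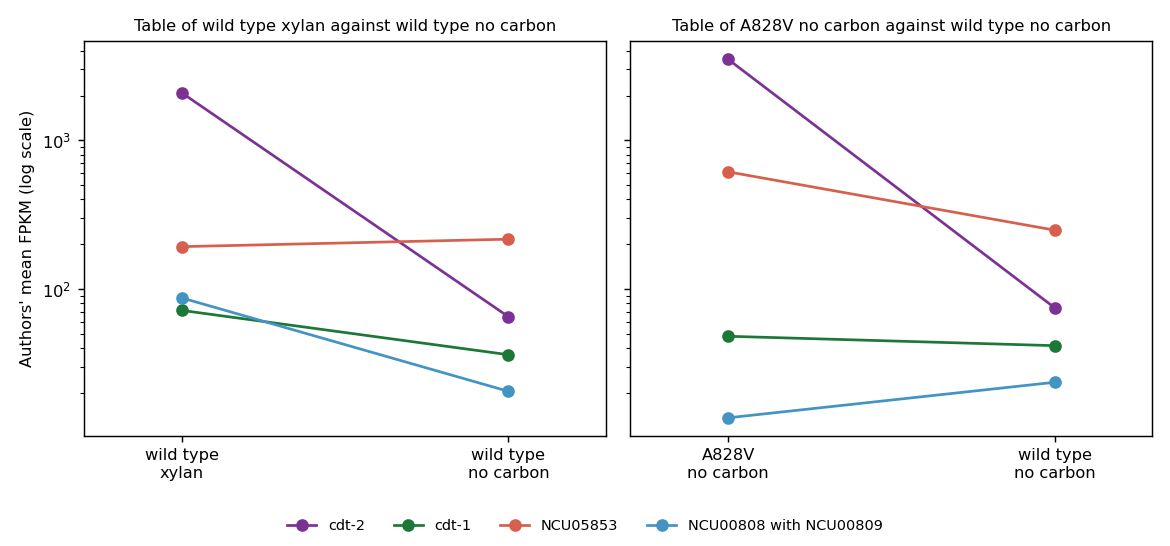
The authors' mean FPKM of the 3 genes and of the merged NCU00808 and NCU00809 entry, on a log scale, for wild type on xylan (left panel) and A828V without carbon (right panel), each beside wild type without carbon of the same table. cdt-2 is 31.9-fold and 46.7-fold higher than in wild type without carbon, and the merged entry is at 87.0 FPKM on xylan against 20.5 FPKM without carbon.

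By mean FPKM, cdt-2 stood at 4214 in A828V without carbon, 69.3 in A828V on sucrose, 43.2 in the deletion strain and 2199 in wild type on xylan. Its order was A828V without carbon, wild type, A828V on sucrose and deletion, and of these neighbours the wild type and A828V without carbon did not pass a test and the sucrose value lay within the deletion libraries on FPKM but above them on CPM, a pair that was not tested. NCU05853 stood at 761, 5.27, 112 and 196 FPKM in the same 4 groups, with wild type second in order, overlapping the deletion strain, and sucrose last. cdt-1 stood at 56.6, 13.0, 144 and 75.8 FPKM, the deletion strain being highest and sucrose lowest, with the other 3 groups overlapping. NCU00809 stood at 9.17, 7.56, 66.1 and 70.5 FPKM, so that both strains on xylan were above the A828V strain in either medium.

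The genes beside the members were examined, since NCU00809 and cdt-1 lie close together. The beta-galactosidase gene gh2-3 (NCU00810), lies 282 bases before NCU00809 and moved in the same direction. gh2-3 was 4.34-fold lower in A828V without carbon than in wild type on xylan (log2 fold change -2.12, SE 0.43, adjusted p = 0.00977, edgeR) and had -0.35 (SE 0.38, adjusted p = 0.738, edgeR) between deletion and wild type. In the authors' deposited table it averaged 143 FPKM in wild type on xylan and 29.0 FPKM without carbon (adjusted p = 0.00900). NCU00808, on the other side, was also lower in A828V than in wild type on xylan (log2 fold change -1.35, SE 0.36, adjusted p = 0.0282, edgeR). Farther along, the MFS transporter gene NCU00803 and NCU00802 beside cdt-1 were higher in A828V (2.48, adjusted p = 0.00181, and 1.11, adjusted p = 0.0134, edgeR), so the block between the 2 members did not move in 1 direction.

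**Figure D4:**
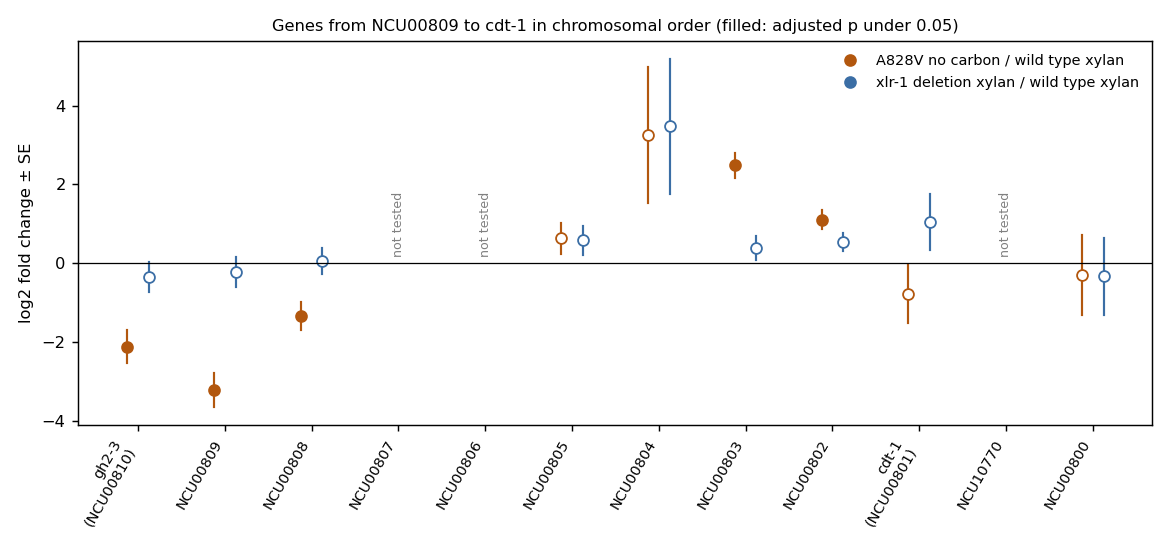
Log2 fold change (± SE) of the genes from gh2-3 past NCU00809 to cdt-1 and NCU00800 in chromosomal order, for A828V without carbon over wild type on xylan and for the xlr-1 deletion over wild type on xylan, filled where the adjusted p is under 0.05. gh2-3, NCU00809 and NCU00808 lie at -2.12, -3.22 and -1.35 in the first contrast, whereas NCU00803 lies at 2.48, and no gene passes in the second.

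Next to cdt-2, the hypothetical gene NCU08113 lies 3603 bases away. It was 14.4-fold higher in A828V without carbon than in the deletion strain (log2 fold change 3.85, SE 0.72, adjusted p = 0.0115, edgeR), at a mean of 16.0 and 0.868 FPKM. Its log2 fold change between deletion and wild type was -2.0 (SE 0.71, adjusted p = 0.245, edgeR). In the authors' deposited table NCU08113 averaged 18.2 FPKM in A828V without carbon and 1.06 FPKM in wild type without carbon (adjusted p = 2.12e-13). The glucuronan lyase gene NCU05852, 716 bases before NCU05853, was higher in A828V without carbon than on sucrose (log2 fold change 2.61, SE 0.68, adjusted p = 0.0267, edgeR).

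Genes of xylodextrin, xylose, cellobiose and cellulose use were read as counts per list, beside the shares of all tested genes called by edgeR. The lists were not split by whether the product acts inside or outside the cell. For the deletion against wild type 0.573% were lower and 0.0234% higher. For A828V without carbon 9.29% were higher and 11.5% lower against wild type on xylan. Against the deletion strain 4.9% were higher and 3.8% lower, and against sucrose 8.39% and 10.4%. Of 7 genes of xylodextrin and xylose use, all 7 fell in the deletion strain relative to wild type, with a median log2 fold change of -6.55, against 0.05 for all tested genes. Among them are the xylosidase/arabinosidase gene NCU01900 (-6.89, adjusted p = 2.8e-05, edgeR), whose product is known to split xylodextrins inside the cell, and xr (-6.35, adjusted p = 2.8e-05, edgeR), the gene of xylose reductase. The same 7 were all higher in A828V without carbon than in the deletion strain (median 4.74), 3 fell and 4 did not pass against wild type on xylan, and 2 rose and 5 did not pass against A828V on sucrose. In the authors' deposited tables all 7 were higher in wild type on xylan than in wild type without carbon, and likewise in A828V than in wild type without carbon.

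Of 10 genes of beta-glucosidases and cellobiose oxidation, none passed between deletion and wild type with edgeR, 1 had an unadjusted p under 0.05, and 1 passed with DESeq2 and none with limma. gh1-1, the intracellular beta-glucosidase that acts on what CDT-1 and CDT-2 import, had -1.20 there (SE 0.31, unadjusted p = 0.00314, adjusted p = 0.131, edgeR), at a mean of 75.1 FPKM in the deletion strain and 159 FPKM in wild type. gh1-1 was lower in A828V without carbon than in wild type on xylan (-1.75, SE 0.35, adjusted p = 0.0092, edgeR). In the authors' deposited table gh1-1 averaged 172 FPKM in wild type on xylan and 26.3 FPKM without carbon (adjusted p = 0.00262). The list had 4 genes called higher in A828V without carbon than on sucrose, where 8.39% of all tested genes were called higher. Against wild type on xylan it had 3 called higher and 1 lower, beside 9.29% and 11.5% of all. Against the deletion strain it had 2 called higher, beside 4.9% of all. Of 8 tested cellulase genes 1 passed with edgeR in any of the 4 comparisons, gh7-1, lower in A828V without carbon than in wild type on xylan (-1.73, adjusted p = 0.032, edgeR). In the authors' deposited table, 2 of 9 cellulase genes were called higher in wild type on xylan than without carbon, beside 5.91% of all genes. These were gh5-1 and gh6-3, whose wild-type libraries on xylan ranged widely, from 1.94 to 58.4 CPM and from 9.41 to 491 CPM.

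Of 6 regulator genes, xlr-1 itself was the 1 called in the deletion strain. clr-1, an activator of cellulose genes, was higher in A828V without carbon than on sucrose (2.15, SE 0.47, adjusted p = 0.013, edgeR) and than in the deletion strain (1.01, adjusted p = 0.045, edgeR). cre-1, the gene of the carbon catabolite repressor, was lower in A828V without carbon than on sucrose (-3.01, SE 0.73, adjusted p = 0.020, edgeR) and than in wild type on xylan (-2.39, SE 0.60, adjusted p = 0.021, edgeR). With both strains without carbon, the authors' deposited table called 2 of the 6 regulators higher in A828V than in wild type, beside 2.94% of all genes. They were clr-1 (70.9 against 28.1 FPKM, adjusted p = 0.0473 there) and vib-1 (107 against 38.7 FPKM, adjusted p = 0.00462 there). cre-1 was not called there (19.4 against 37.1 FPKM, adjusted p = 0.262). Of the 5 conidiation genes, 3 were called higher in A828V without carbon than on sucrose. Against wild type and the deletion strain on xylan, 4 each were called higher. Of all tested genes 8.39%, 9.29% and 4.9% were called higher in these comparisons. No conidiation gene passed between the deletion strain and wild type with edgeR (2 at an unadjusted p under 0.05, none with DESeq2 or limma).

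The other sugar transporters give a scale for the members. Of 23 genes with a sugar transporter product name, 22 were tested, and between the deletion strain and wild type none of them passed with edgeR, their median log2 fold change being 0.29. At an unadjusted p under 0.05 there were 5, and DESeq2 called 2 higher and 1 lower, while limma called none. Of these and the members, cdt-2 was the 1 gene called by edgeR. NCU04537, a monosaccharide transporter gene, had the next lowest value (-2.93, SE 0.80, adjusted p = 0.14, edgeR). Genes named for quinate permeases or nucleotide-sugar carriers were left out of the list. Among those left out, NCU06138, named for a quinate permease, was also called lower in the deletion strain. Its mean was 8.77 CPM there and 1918 CPM in wild type on xylan. Without carbon against sucrose in A828V, 11 of the 22 were called higher and none lower, with a median of 2.21, so cdt-2 and NCU05853 were 2 of 13 called transporter genes there. NCU08152, named for a high affinity glucose transporter, had a larger value than both (8.62, SE 1.84, adjusted p = 0.012, edgeR). Against wild type on xylan 5 of the 22 were called higher and 7 lower, and against the deletion strain 4 were called higher and 7 lower. Of all tested genes 9.29% were higher and 11.5% lower against wild type, and 4.9% and 3.8% against the deletion strain. Against sucrose 8.39% of all were higher and 10.4% lower. The genes that were lower with NCU00809 against wild type include hgt-1 (-2.88, adjusted p = 0.011, edgeR), named for a monosaccharide transporter. In the authors' table of wild type on xylan against without carbon, 7 of 22 were called higher and 3 lower, beside 5.91% and 1.93% of all genes. There NCU01633, a hexose transporter gene, rose 83.4-fold, more than cdt-2, though its wild-type libraries on xylan ranged from 9.40 to 4425 CPM. For A828V against wild type, both without carbon, 3 of 22 were called higher and 1 lower, beside 2.94% and 1.57%.

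**Figure D5:**
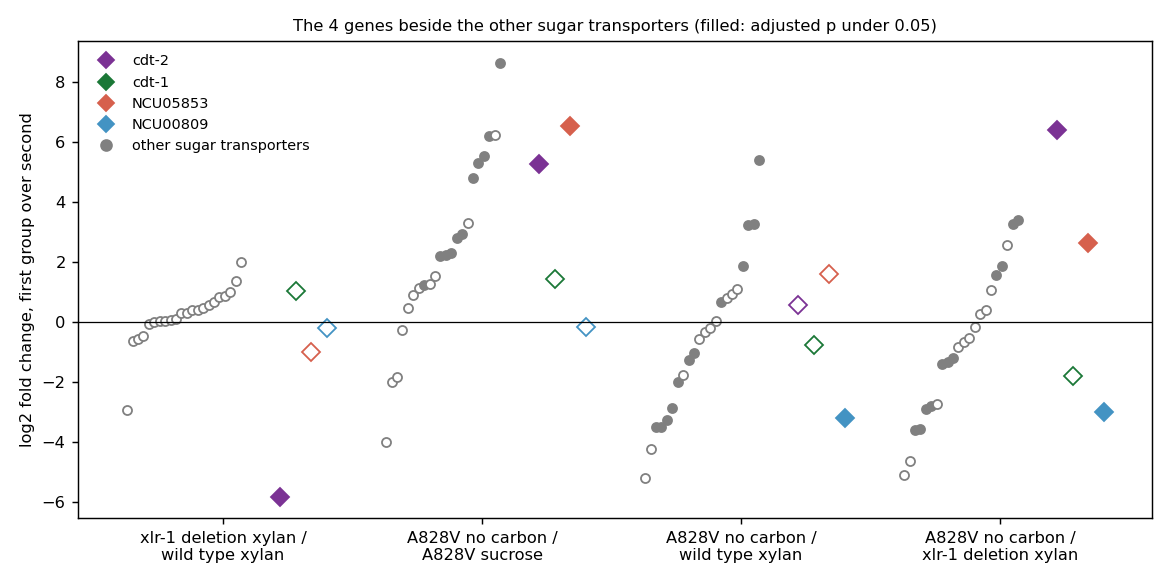
Log2 fold change of the 22 tested other sugar transporter genes (circles, sorted) and of the 4 members (diamonds) in each comparison, filled where the adjusted p is under 0.05. In the deletion strain cdt-2, at -5.83, lies below all 22, whose lowest value is -2.93. In A828V without carbon against sucrose 11 of the 22 are called higher. Quinate permease genes were left out.

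Ranked by FPKM among these 27 transporter genes, cdt-2 held place 1 in all 3 A828V libraries without carbon and place 7 on sucrose. Its places were 14 to 18 in the deletion libraries and 1 to 4 in wild type. NCU05853 held places 2 to 3 in A828V without carbon and place 12 on sucrose, 8 to 16 in the deletion strain and 6 to 12 in wild type. NCU00809 held places 19 to 20 in A828V without carbon and place 11 on sucrose, 11 to 15 in the deletion strain and 10 to 13 in wild type. cdt-1 held places 8 to 15 in all 11 libraries.

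Likeness of pattern was measured as the Pearson correlation of log2 CPM over the 11 libraries, which share groups and media. The 3 genes most like cdt-2 were NCU16529 (r = 0.985), a hypothetical gene, NCU06138 (r = 0.978), named for a quinate permease, and NCU02343 (r = 0.973), an alpha-L-arabinofuranosidase gene. Most like NCU05853 were NCU08998 (r = 0.970), a 4-aminobutyrate aminotransferase gene, NCU08398 (r = 0.962), an aldose 1-epimerase gene, and NCU00937 (r = 0.962), a beta-glucuronidase gene. For NCU00809 they were NCU09416 (r = 0.976), named for a cellulose-binding GDSL lipase, NCU09823 (r = 0.965) and NCU09532 (r = 0.957). For cdt-1 they were NCU05691 (r = 0.947), acu-6 (r = 0.946), the gene of phosphoenolpyruvate carboxykinase in gluconeogenesis, and NCU04591 (r = 0.945). No member was among the 3 genes most like another member.

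Between deletion and wild type, the 3 genes most like cdt-2 were all called lower, NCU06138 by -7.77 (SE 0.43, adjusted p = 7.42e-06, edgeR), NCU16529 by -5.64 (SE 0.61, adjusted p = 0.000902, edgeR) and NCU02343 by -3.79 (SE 0.38, adjusted p = 0.00052, edgeR). NCU09416 was lower with NCU00809 in A828V without carbon than in wild type on xylan (-5.76, SE 0.81, adjusted p = 0.00234, edgeR) and had 0.09 between deletion and wild type (SE 0.59, adjusted p = 0.962, edgeR). Since these genes were picked for their likeness over the same libraries, their fold changes describe the pattern and are no further test of it.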

How the data were processed

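RNA-seq libraries were processed by the authors with TopHat2 2.04, HTSeq 0.6, Cufflinks 2.02 and Cuffdiff 2.02, per the submitters' processing notes. Settings, strand handling and genome build were not stated in these sources. The deposited count tables hold raw read counts for 9758 genes. Each has 5 entries naming no gene (6.34% to 29.6% of the total), which were left out. The deposited FPKM tables hold the authors' FPKM per library. For 9600 loci, of which 151 merge genes, the authors' deposited comparison tables give group means in FPKM, log2 fold changes and adjusted p-values. Their 12 single-library columns were not used. In RefSeq (NC12) 9757 genes matched, which gave symbols and chromosomes, and 9750 had the same start and end.

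Counts were tested with edgeR 4.0.16 (R 4.3.3): TMM factors, filterByExpr with a count minimum of 10, 1 quasi-likelihood fit of all 11 libraries (7 residual degrees of freedom, common biological coefficient of variation 0.411), Benjamini-Hochberg adjustment over 8557 genes, calls at an adjusted p under 0.05. The fitting scripts were tested on simulated data. Alternatives were DESeq2 1.42.0, limma 3.58.1 on log2(FPKM + 1) or log2(FPKM + 0.1), other size factors, no filter, only the libraries compared, a replicate block and each library left out. Exact permutation tests used scipy 1.17.1. Intervals are 95%, from the SE and the residual degrees of freedom. Whether replicate libraries stem from separate cultures is not said, so the p-values cover the spread among these samples, which may be technical. Every pair of replicates differed beyond sampling noise (chi-square per degree of freedom at least 19.0).

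The members and gene lists were chosen with earlier results of these data known. Besides the members the text names their neighbours, the 3 genes most like each, the listed genes with the largest or key values, and xlr-1. Deletion and wild-type libraries of the same number were taken as pairs, with r of deviations from group means of 0.64, 0.264 and 0.252. Unlike numbers came close to the last 2 values. Deletion library 2 with wild-type library 3 gave 0.247, and deletion library 3 with wild-type library 2 gave 0.159. Only the pair numbered 1 thus stood apart, and the pairing of numbers 2 and 3 is uncertain.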

Additional observations from a re-analysis of the deposited data

Results flagged for a closer look

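In the group of 4 deletion libraries, NCU05853 stood at 306 CPM in library 1, against 41.1 to 84.8 CPM in the other 3. Its gap to the next library was 0.835 of the group's range, past Dixon's 95% critical value of 0.829. cdt-1 in deletion library 4 came next, at 1061 CPM and a gap of 0.736, which did not pass. Of 4 such checks, 1 was past the value, and chance gives about 1 in 20 for each single check, so more often for at least 1 of 4. The checks were made on CPM and not on its log, and the value was passed narrowly. Without deletion library 1 the log2 fold change of NCU05853 against wild type was -2.05 (edgeR, adjusted p = 0.101).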

How the results depend on the processing

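No result changed sign while called. Of 208 refits of the 16 member results, 197 kept their side of the threshold, and cdt-2 and NCU00809 did so in all of theirs. cdt-1 passed for A828V without carbon against sucrose in a fit of those libraries alone (1.40), and against the deletion strain with DESeq2 (-1.81). NCU05853 passed against wild type in a fit of those libraries alone (1.59) and with the replicate block (1.92). Against the deletion strain it missed in a fit of those libraries alone (2.64, adjusted p = 0.0514, edgeR) and ranged over 2.32 to 3.65 with 1 library left out. The ratio of cdt-2 to cdt-1 differed by -7.19 to -5.79 (deletion) and 0.87 to 1.66 (A828V) with 1 library left out.

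Counts of calls moved more. For deletion against wild type, genes called higher, 2 in the main test, numbered 1 with no filter, 167 with DESeq2, 15 and 24 with limma (pseudocount 1 and 0.1), 1 with only the libraries compared, 6 with the replicate block, 12 with that block on those libraries alone, 4 without both libraries numbered 1 and 1 to 13 with 1 library left out. Those called lower, 49, numbered 220 with DESeq2, 31 with only the libraries compared, 85 with the block on them alone and 39 to 57 with 1 left out. The block on these libraries alone and the setting without both libraries numbered 1 were chosen after seeing the data. For A828V without carbon against sucrose, genes called higher numbered 1204 with DESeq2, 1429 and 1342 with limma, 2676 with only the libraries compared and 304 to 387 with 1 left out. Those called lower numbered 429 and 400, 2590, and 409 to 541 under limma, only the libraries compared and 1 left out. Against wild type, those higher numbered 1229 with DESeq2, 1599 and 1400 with limma, 1489 with only the libraries compared and 266 to 531 with 1 left out, and those lower 521 and 508 with limma, 1524 and 274 to 991. Against the deletion strain, those higher numbered 766 with DESeq2, 681 with limma (pseudocount 1) and 139 to 571 with 1 left out, and those lower 851, 158 and 146, and 46 to 561. The causes were not tested.

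Replicate numbers of A828V did not pair with those of wild type (r of -0.234 to -0.103) or of the deletion strain (-0.107 to -0.03), so its block values share only a number: the count of calls against wild type went to 1066 higher and 1244 lower, and against the deletion strain to 387 and 265. For A828V on sucrose no paired analysis was possible because that group has 1 library. That single library limits every comparison with sucrose.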

Other observations

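Over the 7 libraries on xylan, deletion and wild type together, the levels of cdt-1 and NCU05853 ran opposite. Log2 CPM gave r = -0.81 (exact permutation p = 0.0234) and Spearman's rho = -0.86 (exact permutation p = 0.0238), and after Benjamini-Hochberg adjustment over the 3 pairs of cdt-1, NCU05853 and NCU00809 these were 0.0702 and 0.0714 by exact permutation, so the relation failed the correction. Without the 2 libraries farthest from the median of cdt-1, r was -0.75. cdt-1 with NCU00809 gave r = -0.06 and rho = -0.21 (exact permutation p = 0.896 and 0.661), and NCU05853 with NCU00809 gave r = -0.13 and rho = 0 (exact permutation p = 0.774 and 1). The strains have 3 and 4 libraries, too few for a value within each. The permutations treat all 7 libraries as exchangeable. In each strain, though, library 1 had the lowest cdt-1 and the highest NCU05853, and these 2 libraries deviated together (r = 0.64 over all genes). The p-values do not allow for that.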
